A study of Rattus norvegicus with 6 samples.

Results

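Elastin and 9 proteins that build or dress the elastic fibre were followed as messenger RNA in the rat common carotid artery after a clot had been cleared. The genes were listed by name as components of the elastic fibre, with earlier results of these data known. All 10 were found among the 24005 gene symbols of the count table: Eln, Fbn1, Fbln1, Fbln2, Fbln5, Emilin1, Ltbp4, Efemp2, Mfap2 and Mfap4. Polyadenylated RNA was sequenced from 2 arteries taken 7 days after recanalization, 3 taken 1 day after it and 1 normal artery, the control. In the recanalized arteries ferric chloride, an oxidant that injures the vessel wall, had produced the clot, and sonodynamic therapy (ultrasound acting with a sensitizer) had been combined with what the submitters name physical-explosion therapy to reopen the vessel. The normal artery had none of these. No library analysed here had the injury or the treatment alone, so that the effects of injury, clot, ultrasound and recanalization cannot be told apart. The strain, sex and age of the rats were not stated in the labels.

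Elastic fibres let a large artery stretch and recoil. Smooth muscle cells of the media secrete tropoelastin, which is guided onto a scaffold of fibrillin microfibrils by fibulins and is then crosslinked by lysyl oxidases into elastin. Most of this elastin is laid down early in life and is very long-lived, while elastases from leukocytes and wall cells can fragment it.

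Totals ran from 30078022 to 47240013 counts per library. Values are given as CPM (counts scaled to normalized library sizes), and, where genes are compared with each other, as the authors' FPKM, which scale fragments by gene length and depth. Day 1 replicate 1 was unlike its fellow day 1 libraries. Across genes its log2 CPM correlated at Pearson r = 0.948 with the control and at 0.883 and 0.919 with day 1 replicates 2 and 3. Fold changes and list medians that rest on day 1 are therefore given with and without it. That library was set apart because it resembled the control, so leaving it out tends to widen day 1 differences from the control. It also enters the shared estimate of spread, so that calls made without it are no independent support. The control is a single library whose own spread is unknown, and the fit assumed that it varies like the recanalized groups. Nothing in the labels says that the libraries came from separate animals, and a p-value here therefore reflects the spread among these 6 libraries alone, part of which may be technical. The RNA is of whole vessel, and fewer cells of a type cannot be told apart from less RNA per cell. Smooth muscle, the labelled tissue's defining cell, was present in every library, with all 13 of its listed markers detected and a summed level of 9158 to 39226 CPM.

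Eln, the gene for tropoelastin, had 3752 and 11408 CPM in day 7 replicates 1 and 2, 74129, 17555 and 15264 CPM in day 1 replicates 1 to 3, and 56515 CPM in the control. Day 1 replicate 1 lay above the control, while the other 4 recanalized libraries lay below it, and the day 7 pair was below every day 1 library. Eln took 0.398% (Wilson 95% interval 0.396 to 0.400%) and 1.20% (1.197 to 1.205%) of all counts at day 7, between 1.58% (1.57 to 1.58%) and 6.42% (6.41 to 6.43%) at day 1, and 5.44% (5.43 to 5.44%) in the control, intervals that cover counting error only. By FPKM it ranked first among all genes in the control and in day 1 replicate 1. It ranked 47 and 13 at day 7, and 6 and 9 in day 1 replicates 2 and 3. The day 7 libraries were thus 15.1-fold and 4.95-fold below the control, and day 1 replicates 2 and 3 were 3.22-fold and 3.70-fold below it. In the edgeR quasi-likelihood fit the log2 fold change was -2.90 (SE 1.24) for day 7 against control and -2.23 (SE 1.04) for day 7 against day 1, and neither passed an adjusted p of 0.05 (adjusted p = 0.477 and 0.521, unadjusted p = 0.0601 and 0.0781). For day 1 against control it was -0.66 (SE 1.16, edgeR adjusted p = 0.858), and -1.78 (SE 0.68, edgeR adjusted p = 0.198) without day 1 replicate 1. Without that library the day 7 value against the control was again -2.90, with SE 0.68 (edgeR adjusted p = 0.0774, range over the alternatives 0.0774 to 0.778). Over all alternatives the edgeR, DESeq2 or limma adjusted p for day 1 against control ranged from 0.198 to 0.987.

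**Figure D1:**
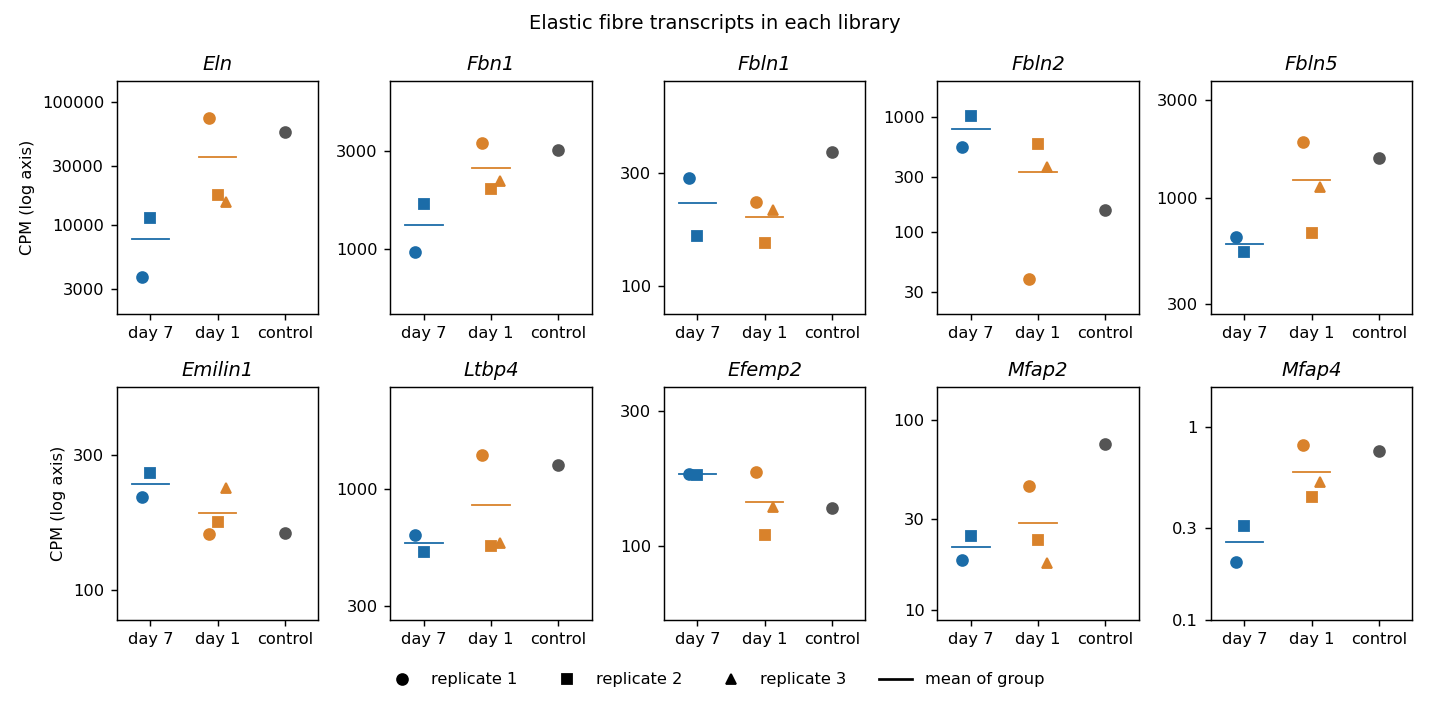
CPM of each of the 10 genes (log axes) in day 7, day 1 and control libraries, with a symbol for each replicate number and a line at the mean of groups with more than 1 library. Eln lies between 3752 and 11408 CPM at day 7 and at 56515 CPM in the control, while Fbln2 shows the opposite order, with 548 and 1017 CPM at day 7 and 156 CPM in the control.

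Microfibrils form the scaffold on which elastin is laid. Fbn1, fibrillin-1, the main structural protein of microfibrils, had 965 and 1655 CPM at day 7, 3283, 1965 and 2134 CPM in day 1 replicates 1 to 3, and 3022 CPM in the control. Its order of libraries was close to that of Eln over a narrower range, with the day 7 pair lowest and day 1 replicate 1 highest. The log2 fold change was -1.21 (SE 0.55) for day 7 against control, which did not pass (edgeR adjusted p = 0.477), and -0.91 (SE 0.44) for day 7 against day 1, or -0.65 (SE 0.37) without day 1 replicate 1 (edgeR adjusted p = 0.523 and 0.511). Mfap2, the microfibril-associated glycoprotein MAGP-1 that binds fibrillin, had 18.3 and 24.6 CPM at day 7, 45.1, 23.3 and 17.7 CPM at day 1, and 74.5 CPM in the control. All 5 recanalized libraries lay below the control, which among the 10 genes was also so for Fbln1 (2 of 10 genes, against 19.0% of all 15860 genes tested), while 0 of 10 had all 5 above it (20.1%). Mfap2 was the member with the smallest p in both comparisons with the control. Its log2 fold change was -1.80 (SE 0.57) for day 7 against control and -1.38 (SE 0.52) for day 1 against control, with unadjusted p = 0.0213 and 0.0410 in edgeR, and neither passed after adjustment (adjusted p = 0.477 and 0.577). Without day 1 replicate 1, which enters the shared estimate of spread, Mfap2 fell in both comparisons, by 1.80 on the log2 scale at day 7 (edgeR adjusted p = 0.0366) and by 1.86 at day 1 (edgeR adjusted p = 0.0303). The adjusted p-values of the other alternatives reached 0.765 at day 7 and 0.810 at day 1. Mfap4, a microfibril-associated glycoprotein that binds integrins, was barely detected, with 10 and 10 counts at day 7, 25, 14 and 16 counts at day 1 and 23 counts in the control, all under 1 CPM. The annotation used for counting is not stated, so that these few counts may understate the gene if its model covered it only in part, which was not tested. At that depth its log2 fold change of -1.56 (SE 0.96) for day 7 against control was not distinguishable from 0 (edgeR adjusted p = 0.526).

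Fibulins bring tropoelastin to the scaffold, and Fbln5 had the highest FPKM of the fibulins in the control, at 525. Fibulin-5 binds both tropoelastin and cells, and mice without it have disorganized elastic fibres. It had 645 and 541 CPM at day 7, 1866, 668 and 1123 CPM in day 1 replicates 1 to 3, and 1569 CPM in the control. The day 7 pair lay below all day 1 libraries, although day 1 replicate 2 was close to it. The log2 fold change was -1.40 (SE 0.62) for day 7 against control and -1.04 (SE 0.50) for day 7 against day 1 (edgeR adjusted p = 0.477 and 0.523), and the second was -0.59 (SE 0.35, edgeR adjusted p = 0.525) without day 1 replicate 1. Efemp2, fibulin-4, which brings lysyl oxidase to tropoelastin, had 180 and 178 CPM at day 7, 183, 109 and 137 CPM at day 1, and 137 CPM in the control. Its day 7 libraries were close together and above the control, and its range over all 6 libraries was 1.67-fold (edgeR adjusted p = 0.658 for day 7 against control, 0.961 for day 1 against control). The FPKM of Fbln5 was 1.98 and 1.68 times that of Efemp2 at day 7, 3.37 to 5.64 times at day 1, and 6.34 times in the control.

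Fbln1 and Fbln2, fibulins that also occur in basement membranes, had fold changes of opposite sign against the control. For day 7 against day 1 the log2 fold changes were 0.19 for Fbln1 and 1.25 for Fbln2, or 0.31 and 0.72 without day 1 replicate 1. Fbln1 had 285 and 163 CPM at day 7, 227, 152 and 209 CPM at day 1, and 368 CPM in the control, which was the highest of the 6. Its log2 fold changes were -0.72 (SE 0.44) at day 7 and -0.91 (SE 0.40) at day 1 against the control (edgeR adjusted p = 0.525 and 0.584). Fbln2, which binds fibrillin-1 and tropoelastin, had 548 and 1017 CPM at day 7, 39.3, 584 and 364 CPM in day 1 replicates 1 to 3, and 156 CPM in the control. It was the most variable of the 10 genes, with a 25.9-fold range, and day 1 replicate 1 was 3.96-fold below the control while the other 4 recanalized libraries were at 2.34 to 6.52 times the control. The log2 fold change was 2.33 (SE 1.55) for day 7 against control and 1.08 (SE 1.39) for day 1 against control, neither past the threshold (edgeR adjusted p = 0.550 and 0.798). Without day 1 replicate 1 they were 2.33 (SE 0.56) and 1.60 (SE 0.54), with edgeR adjusted p = 0.0817 and 0.156, the smallest over the alternatives, which reached 0.774 and 0.987.

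Outside the fibulins, Ltbp4, a latent TGF-beta binding protein that also helps fibulin-5 deposit elastin, had 620 and 521 CPM at day 7, 1420, 555 and 572 CPM at day 1, and 1271 CPM in the control. The day 7 libraries and day 1 replicates 2 and 3 lay at 0.410 to 0.488 times the control, and only day 1 replicate 1 exceeded it. The log2 fold change was -1.16 (SE 0.66) for day 7 against control (edgeR adjusted p = 0.505) and -0.58 (SE 0.62) for day 1 against control (edgeR adjusted p = 0.758). Without day 1 replicate 1 the day 1 value was -1.17 (SE 0.33, edgeR adjusted p = 0.100, range over the alternatives 0.100 to 0.963). Emilin1, a glycoprotein at the border of elastin and microfibril, had 214 and 259 CPM at day 7, 158, 174 and 228 CPM at day 1, and 159 CPM in the control. It varied least of the 10, over a 1.65-fold range, with a log2 fold change of 0.57 (SE 0.35) for day 7 against control (edgeR adjusted p = 0.526).

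The upstream sequences of Fbln2 and Mfap2 are shown because Fbln2 had the largest positive fold change against the control and Mfap2 the smallest p. They are the 250 bases before the RefSeq start on GRCr8, Fbln2 from chr4:125261409-125261658 and Mfap2 from chr5:158597478-158597727, both on the plus strand, with capitals marking GGGCGG or its reverse complement CCGCCC.
Fbln2: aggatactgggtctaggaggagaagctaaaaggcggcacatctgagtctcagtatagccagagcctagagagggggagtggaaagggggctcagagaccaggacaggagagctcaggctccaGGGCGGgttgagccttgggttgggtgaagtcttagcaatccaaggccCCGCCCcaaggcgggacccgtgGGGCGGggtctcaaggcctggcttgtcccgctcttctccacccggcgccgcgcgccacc
Mfap2: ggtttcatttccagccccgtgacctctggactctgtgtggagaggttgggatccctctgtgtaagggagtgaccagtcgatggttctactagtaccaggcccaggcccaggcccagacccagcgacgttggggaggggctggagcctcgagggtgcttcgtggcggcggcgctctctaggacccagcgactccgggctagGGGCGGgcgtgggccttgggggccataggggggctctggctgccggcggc
The GC box GGGCGG, searched on both strands, stood 3 times in the Fbln2 window and 1 time in that of Mfap2. Windows were at hand for 6 of the 10 genes (Fbn1, Fbln2, Fbln5, Ltbp4, Efemp2 and Mfap2), and 5 of them held the motif, against 30.5% of 33469 windows of the same length. Their GC content was 63.2 to 71.2%, against a median of 51.2%. TGANTCA was in 0 of the 6 (6.34% of all windows), TATAAA in 0 (12.9%), CAGACA in 1, that of Fbn1 (17.2%), and the CArG box in 0 (1.5%). GGGCGG was thus shared by genes that were below the control at day 7 (Fbln5, Ltbp4 and Mfap2) and genes that were above it (Fbln2 and Efemp2). No motif overlapped another, other than a pair of GC boxes in the Efemp2 window that share bases.

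Per length, Eln was by far the leading transcript, and less so at day 7. It made up 54.4% and 76.5% of the summed FPKM of the 10 genes at day 7, 92.9%, 84.7% and 80.1% in day 1 replicates 1 to 3, and 91.3% in the control. Both day 7 libraries were below all day 1 libraries, and day 1 replicate 1 was close to the control. The sum of the other 9 genes was far steadier, at 930 and 1025 FPKM at day 7, 1357, 918 and 1090 FPKM at day 1, and 1435 FPKM in the control. Within these 9, Fbln2 took 15.2% and 25.4% at day 7, 0.609%, 16.1% and 8.38% at day 1, and 2.54% in the control. Fbln5 took 25.6% and 19.3% at day 7, 41.4%, 26.3% and 37.0% at day 1, and 36.6% in the control. By level per length Fbln2 was ninth of the 10 genes in the control, at 36.4 FPKM, and close to Fbln5 at day 7, at 141 and 260 FPKM against 238 and 198 FPKM for Fbln5. The FPKM of Eln was 10.4 and 18.5 times that of Fbn1 at day 7, 60.6, 24.0 and 19.2 times at day 1, and 50.2 times in the control. The FPKM values carry no test here.

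**Figure D2:**
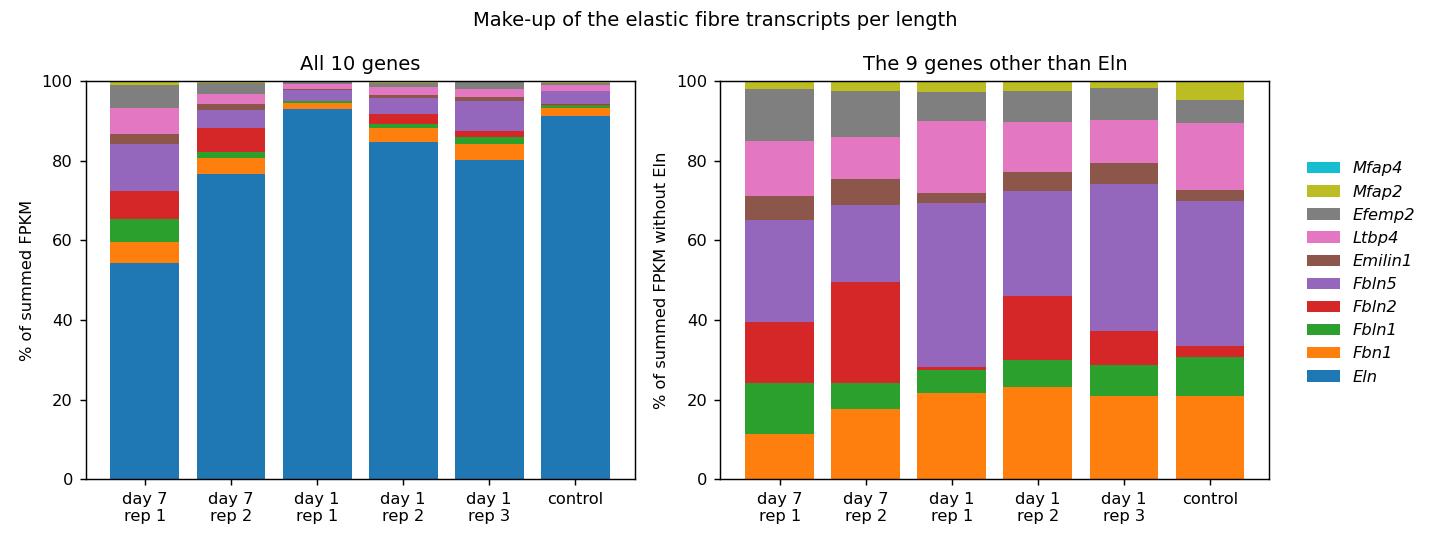
Percent of summed FPKM taken by each gene in each library, for all 10 genes (left) and for the 9 genes other than Eln (right). Eln takes 54.4% and 76.5% at day 7 and 91.3% in the control, and among the other 9 Fbln2 takes 15.2% and 25.4% at day 7 and 2.54% in the control.

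Across the 10 genes, all of which passed the filter on low counts, 7 had a negative and 3 a positive log2 fold change for day 7 against control, where 45.1% of the 15860 genes tested were negative and 54.8% positive. The negative ones were Eln, Fbn1, Fbln1, Fbln5, Ltbp4, Mfap2 and Mfap4, and the positive ones Fbln2, Emilin1 and Efemp2. The median was -1.18, against 0.09 over all genes tested. In every one of the 10 genes the day 7 pair lay on a single side of the control. Of all genes tested 36.2% lay below and 42.9% above in both libraries, so that most genes did so too. edgeR called 0 of the 10 genes and 0 of all genes (0.0%), with 1 of the 10 and 1601 of all genes (10.1%) at an unadjusted p under 0.05. DESeq2 called 0 of the 10 and 790 of all genes (5.4%), and limma-voom called 0 of either. With day 1 replicate 1 left out edgeR called 693 genes (4.39%) for day 7 against control, Mfap2 alone among the 10.

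For day 1 against control the same 7 genes had negative and the same 3 positive fold changes, with a median of -0.36 against 0.06 over all genes tested, and 45.8% of all genes were negative and 54.0% positive. The comparisons share the control library. Only Fbln1 and Mfap2 had all 3 day 1 libraries below it (27.2% of all genes tested), and 0 had all 3 above it (27.5%). Without day 1 replicate 1, 7 were below the control (38.8% of all genes) and 2, Fbln2 and Emilin1, above it (40.7%), and the median was -0.73. edgeR called 0 of all genes (0.0%), with 1 of the 10, Mfap2, and 1373 of all genes (8.66%) at an unadjusted p under 0.05. DESeq2 called 815 genes (5.57%) and limma-voom 0, none of them among the 10. Without day 1 replicate 1 edgeR called 885 genes (5.61%), Mfap2 alone among the 10. Of the other members, the day 1 fold changes with and without that library were -0.30 and -0.56 for Fbn1, -0.36 and -0.81 for Fbln5, -0.91 and -1.03 for Fbln1, 0.23 and 0.34 for Emilin1, -0.36 and -0.65 for Mfap4, and 0.07 and -0.15 for Efemp2. All 4 recanalized libraries that then remain lay below the control for 7 of the 10 genes (26.5% of all genes) and above it for Fbln2 and Emilin1 (30.4%).

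For day 7 against day 1, 6 of the 10 genes had a negative fold change and the median was -0.50, against -0.0012 over all genes tested, of which 50.1% were negative and 49.9% positive. Eln, Fbn1, Fbln5 and Mfap4 had both day 7 libraries below all 3 day 1 libraries (16.0% of all genes tested), and 0 genes lay above (17.2%). The same 4 did so without day 1 replicate 1 (22.6%), and Efemp2 then lay above (24.0%). Without that library the median was 0.040, and the small fold changes of Ltbp4 and Mfap2 changed sign, to 0.018 and 0.062. edgeR called 0 of all genes (0.0%), with 0 of the 10 and 1602 of all genes (10.1%) at an unadjusted p under 0.05, DESeq2 505 genes (3.25%) with 0 of the 10, and limma-voom 0. Single libraries decided the size of the Eln difference, whose log2 fold change against day 1 was -1.64 without day 7 replicate 1 and -3.25 without day 7 replicate 2. Day 1 replicate 1 did so too, since without it the value was -1.11 (SE 0.58, edgeR adjusted p = 0.480, range over the alternatives 0.143 to 1.00).

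**Figure D3:**
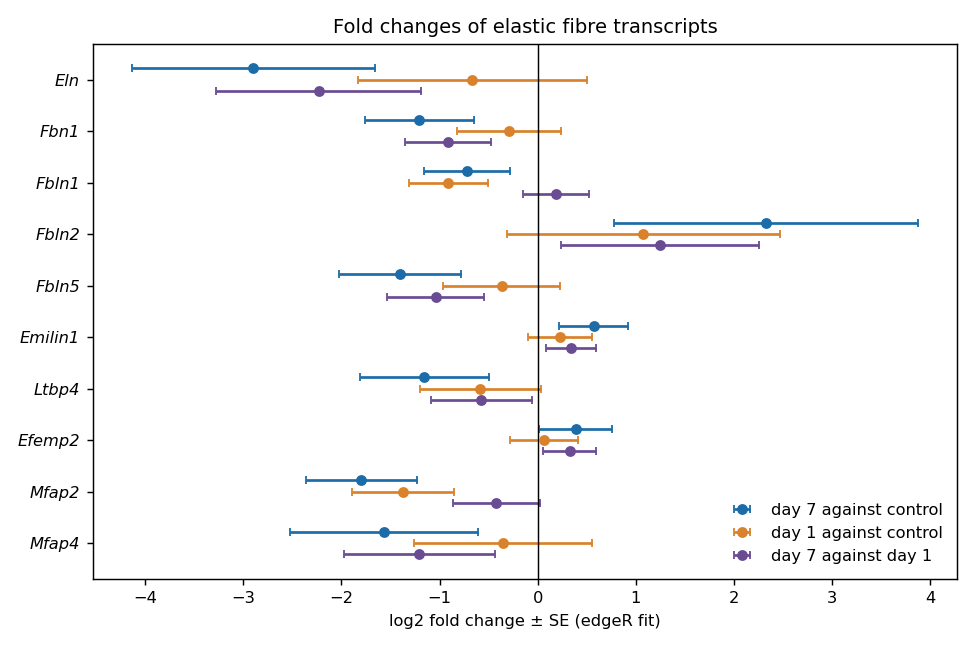
edgeR log2 fold changes of the 10 genes with their standard errors in the 3 comparisons, in which a negative value is lower in the group named first. Eln at -2.90 and Fbln2 at 2.33 for day 7 against control mark the ends of the range, both with wide errors.

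Contractile smooth muscle is the cell that makes most arterial elastin, and Eln was set against its markers. The 13 smooth muscle markers summed to 23753 and 24135 CPM at day 7, 39226, 9158 and 14840 CPM in day 1 replicates 1 to 3, and 37612 CPM in the control. Acta2, smooth muscle actin, had 4943 and 5758 CPM at day 7, 12644, 2613 and 2909 CPM at day 1, and 9324 CPM in the control. The marker sum at day 7 was thus higher than in day 1 replicates 2 and 3, whereas Eln was lower. Against day 1 replicate 1 the marker sum and Eln were each lower at day 7. The part of smooth muscle cell number or state in the Eln difference was not tested. Marker by marker, 8 of 13 had a positive fold change for day 7 against day 1 (49.9% of all genes tested). Their median was 0.26, or 1.02 without day 1 replicate 1. Against the control 10 of 13 were negative at day 7 (45.1% of all genes), with a median of -0.72. At day 1 all 13 were negative (45.8%), with a median of -0.62, or -1.56 without day 1 replicate 1. Eln divided by the marker sum was 0.158 and 0.473 at day 7, 1.89, 1.92 and 1.03 at day 1, and 1.50 in the control. Both day 7 libraries were below the others, which lay on either side of the control, and the same separation held for Eln over Acta2 and over Myh11, smooth muscle myosin. The mean log2 ratio to the marker sum was -1.87 at day 7 and 0.63 at day 1, a difference of -2.50. The two-sided exact permutation test gave p = 0.2, the smallest that 2 against 3 libraries allow. Any full separation of the groups gives that value, so the test cannot decide whether the ratio differed between day 7 and day 1.

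**Figure D4:**
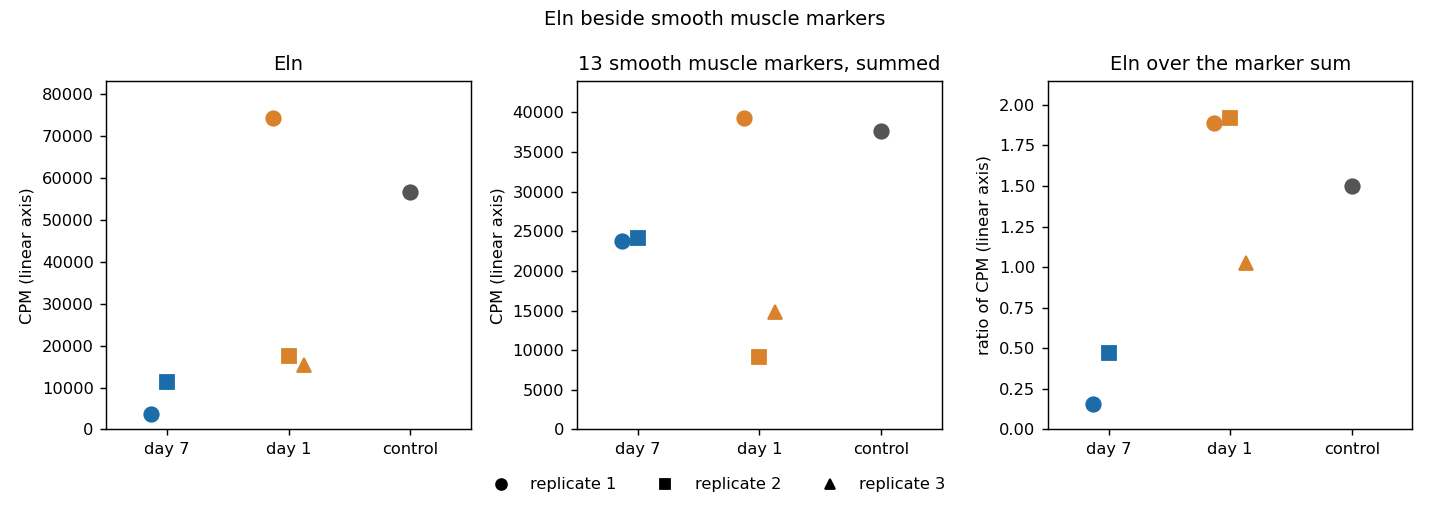
Eln CPM (left), the summed CPM of 13 smooth muscle markers (middle) and their ratio (right) in each library on linear axes from 0. At day 7 the ratio is 0.158 and 0.473, below the 1.03 to 1.92 of day 1 and the 1.50 of the control.

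Markers of other cells differed between the libraries as well. The 10 macrophage markers, all tested, summed to 6155 and 5041 CPM at day 7, 57.7, 6360 and 2880 CPM at day 1, and 64.1 CPM in the control, so that the libraries with low Eln were those rich in macrophage transcripts. Their part in the Eln difference was not tested. The 10 fibroblast markers summed to 24368 and 34598 CPM at day 7, 27130 to 30155 CPM at day 1 and 36917 CPM in the control, sums made up mostly of the collagen genes Col1a1 and Col3a1. Marker by marker, 7 of 10 had a positive fold change for day 7 against control (median 0.58), 3 of 10 for day 1 against control (median -0.41, or -0.35 without day 1 replicate 1) and 8 of 10 for day 7 against day 1 (median 0.98, or 0.76 without it). Pdgfra, a fibroblast receptor, had 90.0 and 106 CPM at day 7, 35.9, 90.0 and 60.3 CPM at day 1 and 47.4 CPM in the control. The 9 skeletal muscle markers summed to 186 and 59.1 CPM at day 7, 30.2 to 116 CPM at day 1 and 98.8 CPM in the control, and of the 5 adipocyte markers 4 were at or under 0.259 CPM in every library, with the fifth, Cfd, at 67.4 and 38.3 CPM at day 7, 0.320 to 11.9 CPM at day 1 and 0.552 CPM in the control. Some skeletal muscle markers were high in day 7 replicate 1 alone, such as Myh1, with 52.1 CPM there, 1.46 CPM in day 7 replicate 2, at most 0.308 CPM at day 1 and 0.260 CPM in the control. Acta1 was not of this kind, with 47.6 and 33.6 CPM at day 7, 7.58 to 78.1 CPM at day 1 and 43.8 CPM in the control. All 9 had a positive fold change for day 7 against day 1 (median 3.57 without day 1 replicate 1). For day 7 against control 6 were positive and 3 negative. The part of skeletal muscle in the results was not tested. The 9 endothelial markers summed to 1713 and 1236 CPM at day 7, 102, 1134 and 269 CPM at day 1, and 1176 CPM in the control, and day 1 replicate 1 also had the lowest Fbln2. That library was thus the poorest in both endothelial and macrophage transcripts. Of 7 T cell markers 6 were found, with sums of 184 and 165 CPM at day 7, 3.07 to 92.1 CPM at day 1 and 6.07 CPM in the control, where Cd3d, Cd3e, Cd3g and Cd2 were at 0. The 7 neutrophil markers summed to 13.3 and 13.8 CPM at day 7, 21.8 to 82.3 CPM at day 1 and 1.69 CPM in the control. The 6 red cell markers found summed to 534 and 43.0 CPM at day 7, 1242 to 2362 CPM at day 1 and 240 CPM in the control. The 5 Schwann cell markers summed to 24.6 and 17.4 CPM at day 7, 12.5 to 27.9 CPM at day 1 and 47.0 CPM in the control. The part of these cells in the levels of the fibre genes was not tested.

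The genes nearest to Eln in pattern were sought among 5167 others with a mean log2 CPM of at least 5, by the root mean square difference of centred log2 CPM over the 6 libraries. The nearest were Scube1, a secreted protein with EGF-like domains (0.54), Lox (0.56), Col4a6 (0.62), Pdzd2 (0.64) and Col4a5 (0.65). Col4a5 and Col4a6 encode basement membrane collagen chains. Lox, lysyl oxidase, which starts the crosslinking of elastin, had 387 and 1143 CPM at day 7, 2954, 1197 and 984 CPM at day 1, and 2175 CPM in the control. Like Eln it was lowest in day 7 replicate 1 and highest in day 1 replicate 1. Among the 10 genes themselves, those closest to Eln by this measure were Mfap4 (0.86), which rests on few counts, Fbn1 (0.87), Mfap2 (0.92) and Fbln5 (0.94), and Fbln2 was farthest (2.84).

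Among other genes of the fibre and its turnover, 0 passed the adjusted edgeR test in any comparison with all libraries. Those that passed without day 1 replicate 1 are named with their lists. Leaving out that library, which resembled the control, works towards such passes. Of 6 crosslinking genes, all tested, 0 were called in any comparison, and the median log2 fold change was 0.30 for day 7 against control and -0.11 for day 1 against control, or -0.17 without day 1 replicate 1, where again 0 were called. Loxl1, the lysyl oxidase that maintains elastin in adult mice, had 492 and 689 CPM at day 7, 343 to 675 CPM at day 1 and 535 CPM in the control. Loxl3, of the same enzyme family, had 55.8 and 79.6 CPM at day 7, 31.3 to 50.1 CPM at day 1 and 49.4 CPM in the control, and its relative Loxl4 had 10.4 and 22.5 CPM at day 7, 18.3 to 55.9 CPM at day 1 and 6.49 CPM in the control.

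Of 22 other fibre-associated genes 21 were tested and 0 called. For day 7 against control 12 were positive (54.8% of all genes tested), with a median of 0.38 against 0.09 over all genes. For day 1 against control 10 were positive (54.0%), with a median of -0.10 against 0.06, or 0.03 without day 1 replicate 1. Fbn2, fibrillin-2, the fibrillin of fetal and early postnatal tissue, had 7.96 and 93.8 CPM at day 7, 0.256, 33.3 and 9.76 CPM at day 1, and 0.227 CPM in the control. It was near the control in day 1 replicate 1 and far above it in the other 4, and it did not pass (log2 fold change 7.78, SE 3.67 for day 7 against control, edgeR adjusted p = 0.479). Mfap5, MAGP-2, the relative of Mfap2, had 85.4 and 106 CPM at day 7, 31.2 to 64.0 CPM at day 1 and 55.5 CPM in the control, opposite in order to Mfap2 at day 7. Fbln7, fibulin-7, had 64.2 and 68.4 CPM at day 7, 22.4 to 42.1 CPM at day 1 and 19.6 CPM in the control. Adamts10, a protease that binds fibrillin-1, had 122 and 137 CPM at day 7, 141 to 218 CPM at day 1 and 301 CPM in the control. Fbln7 was thus highest at day 7 and Adamts10 in the control. Mmrn1, multimerin-1 of platelets and endothelium, had 48.8 and 23.6 CPM at day 7, 14.2 to 20.2 CPM at day 1 and 64.7 CPM in the control. Fbln7, Adamts10 and Mmrn1 had the smallest unadjusted p of the list, at 0.00997, 0.0120 and 0.00461 in edgeR. Each value is the smallest over the 3 comparisons, and 0 passed after adjustment. Fbln7 rose at day 7 against the control without day 1 replicate 1, by 1.76 on the log2 scale (edgeR adjusted p = 0.0320). Emilin2, a relative of Emilin1 chosen here because it passed, then rose at day 7 by 3.20 and at day 1 by 3.53 (edgeR adjusted p = 0.0284 and 0.0212), and Thsd4, which binds fibrillin-1, fell at day 1 by 1.71 (edgeR adjusted p = 0.0448).

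Proteases listed as cutting elastin or microfibrils mostly had positive fold changes against the control. Of 13 listed, 12 were tested and 0 called. For day 1 against control 11 were positive (54.0% of all genes tested), and 11 for day 7 against control (54.8%). The median was 2.44 at day 7 and 3.05 at day 1. It was 2.58 and 1.63 with genes that had 0 counts throughout 1 of the groups set there to 3 counts per library. Elane had 0 counts in both groups of the day 7 comparison and was left out of its second median. With day 1 replicate 1 left out, 11 were tested and the medians on that floor were 2.58 at day 7 and 2.07 at day 1. Mmp12, macrophage elastase, had 762 and 95.3 CPM at day 7, 0.256, 556 and 134 CPM at day 1, and 0 counts in the control, whose floor of 3 counts is 0.0974 CPM. Day 7 replicates 1 and 2 were at least 7825-fold and 978-fold higher than the control on that floor, while day 1 replicate 1 held few counts (edgeR adjusted p = 0.477 for day 7 against control). Ctss, cathepsin S, a lysosomal elastase of macrophages, had 358 and 267 CPM at day 7, 2.95, 225 and 156 CPM at day 1, and 5.88 CPM in the control. Ctss rose against the control without day 1 replicate 1, by 5.73 on the log2 scale at day 7 and 5.02 at day 1 (edgeR adjusted p = 0.00586 and 0.00717), and Mmp3, stromelysin-1, passed at day 1 (edgeR adjusted p = 0.0348). Mmp2, a gelatinase of wall cells, had 2177 and 2287 CPM at day 7, 1040 to 1192 CPM at day 1 and 1135 CPM in the control, so that both day 7 libraries lay above all others (log2 fold change 1.01, SE 0.28 for day 7 against day 1, edgeR adjusted p = 0.459, and 1.07, SE 0.29, edgeR adjusted p = 0.248 without day 1 replicate 1). Mmp3 had 1.90 and 0.638 CPM at day 7, 0.192 to 4.04 CPM at day 1 and 0 counts in the control. Ctsb, cathepsin B of lysosomes, had 3160 and 1934 CPM at day 7, 652 to 2252 CPM at day 1 and 518 CPM in the control, above the control in all 5 libraries.

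Of the 9 protease inhibitors, all tested and 0 called, 6 were positive for day 7 against control (54.8% of all genes tested). Timp1, which blocks metalloproteinases, had 112 and 94.8 CPM at day 7, 186, 284 and 150 CPM at day 1, and 40.4 CPM in the control. It was above the control in all 5 libraries and lower at day 7 than at day 1 (log2 fold change 2.35, SE 0.48 for day 1 against control, edgeR adjusted p = 0.422). The value was 2.42 and passed without day 1 replicate 1 (SE 0.48, edgeR adjusted p = 0.0429). Cst3, cystatin C, an inhibitor of cathepsins, had 2017 and 1165 CPM at day 7, 495 to 651 CPM at day 1 and 666 CPM in the control. Slpi, which blocks neutrophil elastase, had 2.23 and 2.49 CPM at day 7, 0.512 to 9.56 CPM at day 1 and 0 counts in the control. Slpi passed, without day 1 replicate 1, against the control at day 7 and at day 1 (edgeR adjusted p = 0.00941 and 0.00717), as did Serpinb1a, an inhibitor of neutrophil proteases named because it passed (edgeR adjusted p = 0.00586 and 0.00583). Elane, neutrophil elastase itself, was at 0 counts at day 7 and in the control and reached 0.370 CPM at day 1.

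**Figure D5:**
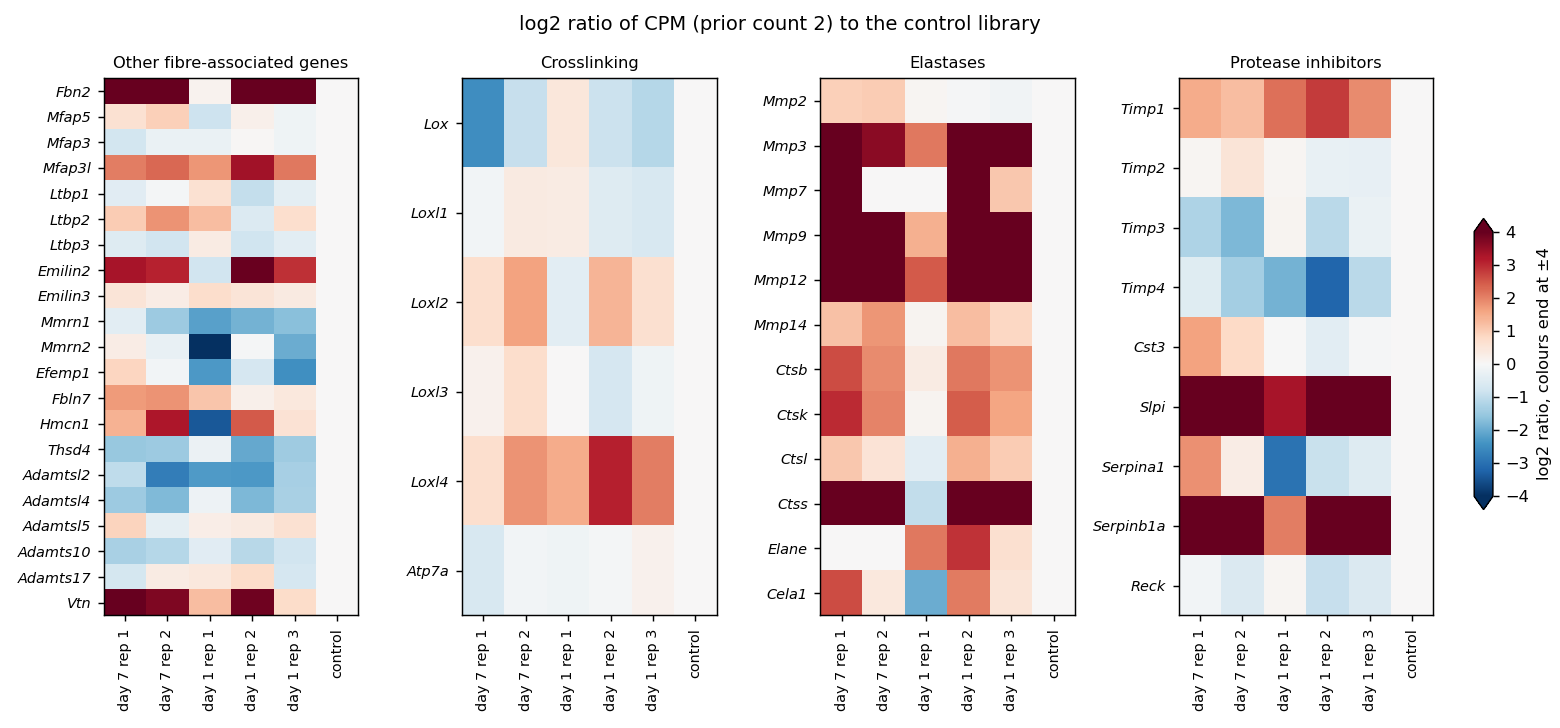
log2 ratio of CPM, with a prior count of 2, of each library to the control for fibre-associated, crosslinking, protease and inhibitor genes, with colours ending at 4 in either direction. The panel headed Elastases holds the proteases listed as cutting elastin or microfibrils. Elastases such as Mmp12 and Ctss are above the control in both day 7 libraries and in day 1 replicates 2 and 3, and Lox is below it in those 4.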

How the data were processed

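Polyadenylated RNA was sequenced from 6 libraries of rat common carotid artery. The deposited tables hold raw read counts per gene and FPKM per gene, both made by the authors. The submitters' processing notes list StringTie 1.3.1, HISAT2, fastp 0.18.0 and Bowtie2 2.2.8, with no role given. Build, annotation and strand setting: not given in the sources used here. Therefore reads of overlapping genes cannot be told apart. Dividing deposited counts by FPKM gave 1 length per gene, with each library's total as scale.

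Counts of 15860 of 24005 genes passed edgeR's filter by group. They were fitted with edgeR 4.0.16 (R 4.3.3; TMM factors, robust quasi-likelihood, 3 group means, 3 residual degrees of freedom), with Benjamini-Hochberg adjustment over all genes tested and a threshold of 0.05. CPM used the TMM library sizes. The standard error is the fold change divided by the square root of F. Centred log2 CPM used a prior count of 2. The floor for 0 counts is 3 counts per library, and Wilson intervals are at 95%. The ratio test used scipy 1.17.1. Alternatives were median-of-ratios factors, library totals alone, no filter, DESeq2 1.42.0, limma-voom (limma 3.58.1), each recanalized library left out, the recanalized libraries alone, and these with a replicate block. Counts of non-overlapping genes and list values without day 1 replicate 1, and a block by column number, were added after seeing the data. The code was tested on simulated counts. Of 100 genes changed 4-fold, edgeR called 4 for day 7 against control, 19 for day 1 against control and 48 for day 7 against day 1. At 8-fold these were 35, 49 and 82 of 100, so that a gene not called may still have changed.

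The members and all lists were chosen with earlier results of these data known. Named were all 10 members, a few preset genes, cell markers and the 5 genes nearest Eln. From each of 6 pathway lists the 3 genes with the smallest unadjusted p in any of the 3 comparisons were named too. One gene that this rule names is not reported here. Elane, Emilin2, Thsd4, Serpinb1a and Myh1 stand outside that rule and were chosen after their values were seen. Upstream sequences are RefSeq's on GRCr8, matched by symbol for 6 of the 10 genes, and no coordinates of the authors' build were used. In the list of fibre-associated genes Tnxb was not matched.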

Additional observations from a re-analysis of the deposited data

How the results depend on the processing

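None of the 10 genes passed an adjusted p of 0.05 under any setting, except Mfap2 in both comparisons with the control without day 1 replicate 1. Of their refitted fold changes 6 reversed, all of them small. Without day 1 replicate 1 these were Efemp2 for day 1 against control (-0.15) and Ltbp4 (0.018) and Mfap2 (0.062) for day 7 against day 1. Fbln1 reversed for day 7 against day 1 (-0.27) without day 7 replicate 1. Ltbp4 and Mfap2 also reversed for day 7 against day 1 with the block by column number described below. Over the libraries left out Efemp2 ranged from -0.15 to 0.23, Fbln1 from -0.27 to 0.54, Ltbp4 from -0.80 to 0.018 and Mfap2 from -0.67 to 0.062. The median of the 10 genes for day 7 against day 1 ranged from -0.73 to 0.040, the last without day 1 replicate 1. edgeR called 0 genes in each comparison. DESeq2 called 815 for day 1 against control, 790 for day 7 against control and 505 for day 7 against day 1. Without the filter edgeR called 1 gene for day 7 against control, Fam111a (log2 fold change 6.96, adjusted p = 0.0430), named after its values were seen. Leaving out 1 library gave 0 to 885 calls for day 1 against control, 0 to 693 for day 7 against control and 0 to 0 for day 7 against day 1, the highest without day 1 replicate 1. The cause of these differences was not tested. Library totals alone moved the median of all genes by 0.14 for day 7 against control and 0.11 for day 7 against day 1, with no change of sign in a member. With the replicate block day 7 against day 1 gave 0 calls and a median of the 10 genes of -0.63. The deviations of same-numbered libraries from their group means correlated at r = -0.048 and -0.054 across genes. With 2 day 7 libraries the deviations of one mirror those of the other, so that r cannot decide whether libraries were paired. The control has no number, and same-numbered libraries were not treated as pairs. The last digits of the deposited column names differ from the title numbers at day 7 (2 and 3 in place of 1 and 2), and by those digits r was 0.054 and -0.010. A replicate block by these digits, added after seeing the data, leaves day 1 replicate 1 alone in its block, and gave 103 calls, 0 of them among the 10 genes, with Ltbp4 at 0.012, Mfap2 at 0.058 and the median of the 10 genes at 0.035. The SE for day 7 against control was 0.68 for Eln and 0.56 for Fbln2 without day 1 replicate 1, against 1.24 and 1.55 with it. Mfap4 rests on 10 to 25 counts per library, and the control is 1 library.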

Other observations

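Genes that sense or store signals beside the fibre had values of their own. Of 14 TGF-beta pathway genes tested, 11 had a positive fold change for day 7 against control (median 0.43, against 0.09 over all genes tested) and 9 for day 1 against control (median 0.47, against 0.06, or 0.35 against 0.05 without day 1 replicate 1), and edgeR called 0 with or without that library. Smad7, the inhibitory Smad, had 165 and 185 CPM at day 7, 42.8 to 55.6 CPM at day 1 and 67.0 CPM in the control, with a log2 fold change of 1.79 (SE 0.21) for day 7 against day 1 (edgeR adjusted p = 0.402), or 1.84 (SE 0.25, edgeR adjusted p = 0.110) without day 1 replicate 1. Tgfb1, the ligand that latent binding proteins hold in the matrix, had 163 and 118 CPM at day 7, 101 to 166 CPM at day 1 and 52.0 CPM in the control.

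Of 8 elastin receptor genes, all tested and 0 called by edgeR, 4 were positive and 4 negative in each comparison with the control, and 5 were positive for day 1 against control without day 1 replicate 1, again with 0 called. Glb1, whose splice form is the elastin-binding protein, had 113 and 112 CPM at day 7, 49.6 to 99.6 CPM at day 1 and 46.0 CPM in the control. Itga5, the fibronectin receptor chain, had 327 and 231 CPM at day 7, 582 to 1430 CPM at day 1 and 392 CPM in the control. Itgb3, the beta chain of the vitronectin receptor, had 30.7 and 41.2 CPM at day 7, 58.9 to 91.5 CPM at day 1 and 75.0 CPM in the control.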
